A study of Bos taurus with 12 samples.

Results

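Among the small RNAs sequenced from beef longissimus muscle, bta-miR-449a (miRBase hairpin MI0009834) was followed through time-on-concentrates in all 12 libraries. It was taken as the row with this identifier, 1 of 2712 rows in the deposited table and 1 of 640 rows with a miRBase identifier. The row was chosen because the study lists it as lower than d 0 at both later times. Its differences from d 0 are therefore a description without a test. The libraries came from needle biopsies of 4 Angus-cross yearling steers by the same sire. Each steer was sampled at d 0, d 92 and d 124 of high concentrate feeding, and the replicate number stands for the steer. All steers were moved onto the ration by step-up diets after d 0, and no group stayed off concentrates, so time on feed and age cannot be told apart. The biopsy side differed between d 0 and d 92, with the same rib, and the rib differed between d 0 and d 124, with the same side. Between d 92 and d 124 both differed. In each comparison, the part that differed cannot be told apart from the time. The sequenced steers had been picked by the study for intramuscular fat close to the mean at the later times.

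The miR-449 family shares its seed with the miR-34 family. It is best known from multiciliated epithelia, where these miRNAs are abundant and repress cell cycle and Notch pathway genes as cells stop dividing and grow cilia. In vertebrates the family lies within an intron of CDC20B, and its expression follows E2F1 in cycling cells. Skeletal muscle is not a tissue in which it is known to be abundant. In the ARS-UCD2.0 annotation, another build than the bosTau4 used by the authors, MIR449A on chromosome 20 is spanned by CDC20B. There MIR449B and MIR449C precede it, and GPX8 follows. Rows for the rest of the family, such as miR-34a, miR-34c and miR-449b, were not analysed here because the sources used here do not pair their names with row identifiers.

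The table gives log2 values that the authors quantile normalized and that were centred on the median of each row. The subtracted median of miR-449a was 1.16 (log2). A level is given here as the log2 distance above the floor, the lowest value that rows of few reads share in every library. Of the 640 miRBase rows, 431 varied, and 368 that were above their own minimum in at least 4 libraries were fitted. The table holds no counts, so the number of reads behind each library's values is not given here. One library stood apart. The d 0 library of steer 4 held the highest of the 12 values for 138 of 368 fitted rows, which is 37.5% of them, while each of the others did so for 6 to 66 rows. The d 0 mean of miR-449a, its differences from d 0, the rows of like level, the miRNAs listed as lower whose values are printed and the rows most like it are given with and without this library. For the d 0 mean, the rows of like level and the named miRNAs, leaving it out was chosen after seeing the data.

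At d 0, the level of miR-449a (log2) was 1.92, 1.74, 1.80 and 3.28 in steers 1, 2, 3 and 4. Steers 1 to 3 thus lay close together and steer 4 stood above them. At d 92 the levels were 1.79, 0.93, 0 and 0 in the same order. Steers 3 and 4 were at the floor, steer 2 was between, and steer 1 had stayed within the range of d 0. At d 124 the levels were 0.031, 0, 1.39 and 0.61, so that steer 2 was at the floor and steer 1 barely above it. The 4 libraries of d 124 all lay below the 4 of d 0. Across the 12 libraries, 3 were at the floor, 0 of them at d 0, 2 at d 92 and 1 at d 124.

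**Figure D1:**
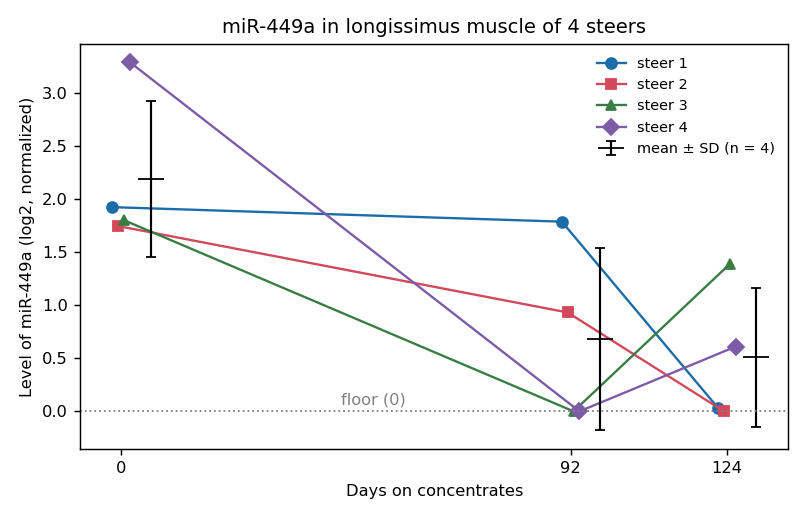
Level of miR-449a (log2 above the floor, vertical axis) against days on concentrates (horizontal axis), with 1 line per steer, points shifted slightly sideways so that they can be told apart, and the mean ± SD of the 4 steers in black beside each time. The d 0 points lie between 1.74 and 3.28, while at d 92 and d 124 every steer but steer 1 at d 92 lies at 1.39 or below.

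The mean level at d 0 was 2.19 ± 0.74 (SD, n = 4), and 1.82 ± 0.092 (SD, n = 3) without steer 4. At d 92 the mean was 0.68 ± 0.86 (SD, n = 4), and d 124 followed with 0.51 ± 0.65 (SD, n = 4). The order of the means was d 0, d 92 and d 124. The d 92 and d 124 means were closer to each other than the SD of either time.

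These values lie near the floor. At the low end of each library the values fell on discrete steps, each shared by many rows, which is what equal read numbers give after quantile normalization. Counting steps upward from the floor, miR-449a stood on steps 2, 3, 3 and 5 at d 0 in steers 1 to 4. It stood on steps 3, 1, 0 and 0 at d 92 and on steps 1, 0, 2 and 1 at d 124, where 0 is the floor. Where whole reads were counted, the step is the least number of reads that the row can hold, and the read number itself is unknown. Summed over the steers, this came to 13 steps at d 0, 4 at d 92 and 4 at d 124. In the 9 libraries above the floor, between 20 and 130 other rows of the table sat on the same step as miR-449a.

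The steps also set how finely miR-449a could be resolved. One step down from its level in the d 0 library of steer 1 was 0.97 lower (log2), and in that of steer 4 it was 0.30 lower. The level of the first step differed between libraries, from 0.031 in the d 124 library of steer 1 to 0.95 in the d 0 library of steer 1. A miRNA on the first step therefore had a level of 0.93 in the d 92 library of steer 2 and 0.031 in the d 124 library of steer 1, and miR-449a was such a miRNA in both. In steer 1 the order of steps and levels was opposite at d 0 and d 92. The row was on step 2 at d 0 and step 3 at d 92, while its level was 1.92 and 1.79. On the scale of steps, the d 124 libraries did not all lie below those of d 0. The row was on step 2 in steer 1 at d 0 and also in steer 3 at d 124.

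**Figure D2:**
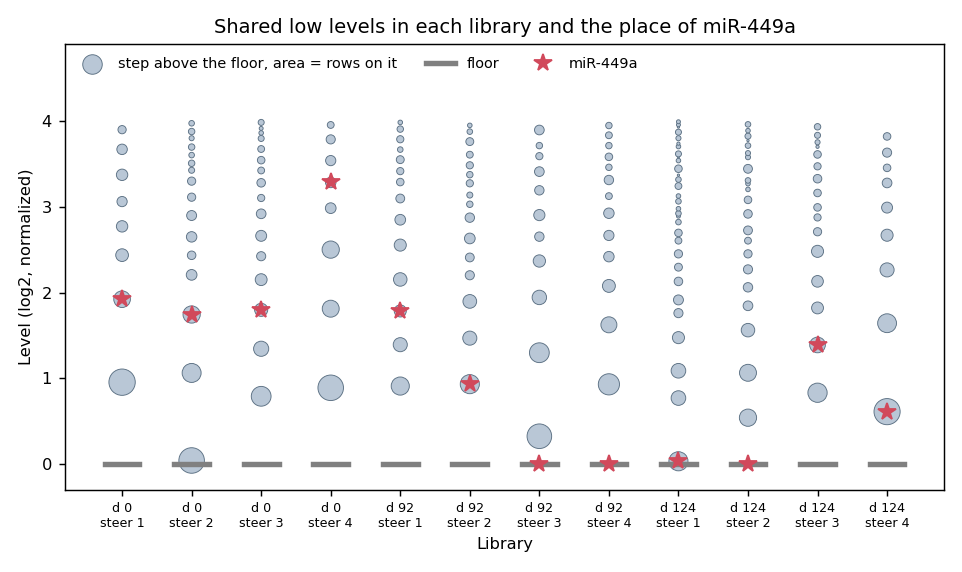
Shared levels below 4 (log2 above the floor, vertical axis) in each of the 12 libraries (horizontal axis), with circle area proportional to the number of rows on a step, a grey bar for the floor and a star for miR-449a. The star lies on step 2 to 5 at d 0 and on step 0 to 3 at the later times, and the first step lies between 0.031 and 0.95 depending on the library.

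From d 0 to d 92, the level of miR-449a fell by 0.14 in steer 1 and by 0.81 in steer 2. It fell by at least 1.80 in steer 3 and by at least 3.28 in steer 4, where the floor limits the value. Lower levels were thus seen in 4 of 4 steers, but the size ran from 0.14 to the whole distance to the floor. On the scale of steps, steers 2, 3 and 4 also fell, while steer 1 rose from step 2 to step 3. By d 124 the fall from d 0 was larger in steer 1, where the level decreased by 1.89. It decreased by at least 1.74 in steer 2, by 0.41 in steer 3 and by 2.67 in steer 4. Again 4 of 4 steers were lower, and steer 3 moved least. Every steer was at the floor or no higher than the first step at 1 or both of the later times.

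The mean difference from d 0 was -1.51 (standard error 0.47) at d 92, which is 2.84-fold lower, and -1.68 (standard error 0.47) at d 124, which is 3.20-fold lower. Both come from the fit over all rows and share the d 0 libraries. As 2 libraries of d 92 and 1 of d 124 were at the floor, both falls are lower limits. Their standard errors take the floor values as measured. On the scale of log2(value + 10), with the floor taken as 1, the differences were -0.33 and -0.37, so the folds hold only for the log2 values as deposited. Among the 368 fitted rows, whose median differences were -0.091 and -0.066, that of miR-449a was the third lowest at d 92 and the lowest at d 124. A low place is favoured by the choice of the row as one listed as lower. Without the d 0 library of steer 4, the differences were -1.14 and -1.31, and their places from the lowest were 8 and 4. At an unadjusted p under 0.05 in limma, 3.80% of fitted rows were lower at d 92 and 7.61% at d 124, and 0% passed at an adjusted p under 0.05 in either comparison. In the log2 values, all 4 libraries of d 124 lay below all 4 of d 0 in 10 of 368 rows, or 2.72%, miR-449a included. At d 92 this held for 9 rows, or 2.45%, and not for miR-449a, of which 3 of 4 libraries lay below all those of d 0.

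The row is of low level. Its mean level over the 12 libraries was 1.12 (log2), and 266 of the 308 fitted rows with a recovered level were higher. Within 0.5 (log2) of this level lay 30 other fitted rows, with a median difference from d 0 of 0.084 at d 92 and -0.00060 at d 124. Of these 30 rows, 12 were lower and 18 higher at d 92, and 15 were lower and 15 higher at d 124. A difference as low as that of miR-449a was found in 1 of the 30 at d 92 and 0 of the 30 at d 124. The 30 rows were not chosen for being lower, as miR-449a was, so its low place follows in part from the choice. Without the d 0 library of steer 4, the median differences of the 30 rows were 0.20 and -0.25. A difference as low as that of miR-449a in the same fit was then found in 2 of the 30 at d 92 and 1 of the 30 at d 124. The pooled SD within a time was 0.75 for miR-449a, against a median of 0.93 for the 30 rows and 0.52 for all fitted rows.

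**Figure D3:**
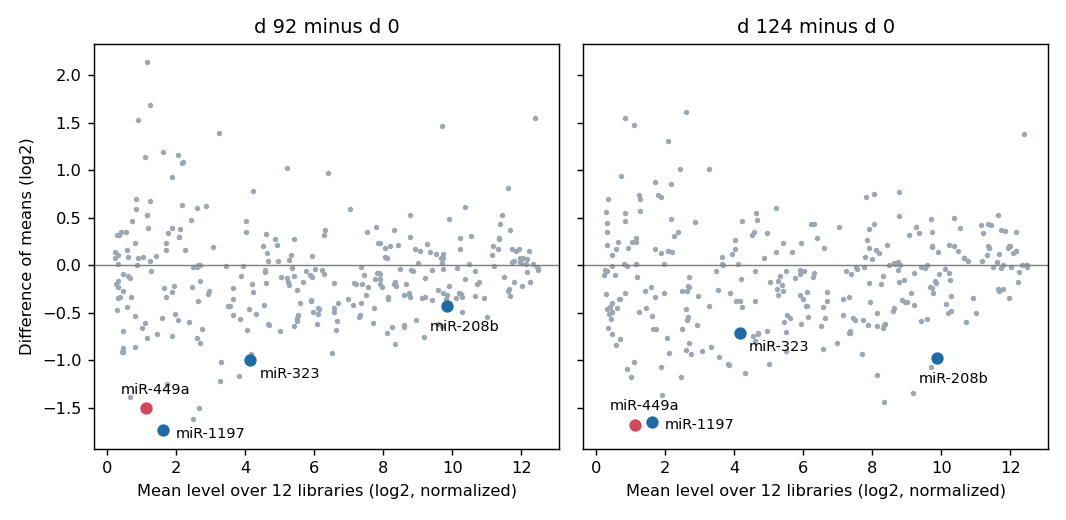
Difference of the time means (log2, vertical axis) against the mean level over the 12 libraries (log2 above the floor, horizontal axis) for the 308 fitted rows with a recovered level, for d 92 minus d 0 on the left and d 124 minus d 0 on the right. In red, miR-449a lies at -1.51 and -1.68 at a mean level of 1.12, next to miR-1197 and well below the levels of miR-323 and miR-208b, in blue.

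The choice of the row did not use the change between the later times directly, but it used the same libraries against d 0. Choosing a row as lower at both times can favour rows whose later means are alike. A small difference between d 92 and d 124 is therefore in part a result of the choice. From d 92 to d 124, the level fell by 1.75 in steer 1 and by at least 0.93 in steer 2, and it rose by at least 1.39 in steer 3 and at least 0.61 in steer 4. Steers 1 and 2 thus moved opposite to steers 3 and 4. The mean difference was -0.17 (standard error 0.47, 95% interval -1.18 to 0.83, adjusted p = 0.974 from limma over 368 rows). It was lower in 2 of 4 steers, and was not larger than the spread between libraries (p = 0.8286 by the exact permutation test, two-sided, of all 70 regroupings). The permutation test regrouped libraries without regard to the steer, so it did not use the pairing. As a fold, the interval runs from 0.443 to 1.78. Without the d 92 library of steer 1 the difference was 0.20. In limma, 5 of 368 rows (1.36%) passed an unadjusted p under 0.05 in this comparison, and 0 passed an adjusted p under 0.05. The 5 rows became 14 without the d 92 library of steer 3 and 8 without the d 0 library of steer 4.

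The steers did not differ in miR-449a beyond the spread left after time (limma with time and steer as terms, adjusted p = 0.963). The means over the times were 1.25, 0.89, 1.06 and 1.298 (log2) in steers 1 to 4. At an adjusted p under 0.05, 4 of 368 rows (1.09%) differed among steers in the same fit.

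Other miRNAs that the study lists as lower at one time or both were set beside miR-449a. Listed at both times was also miR-2411, whose function is little known. In the deposited values its difference from d 0 was 0.11 at d 92 and -0.11 at d 124 (standard error 0.29). The fall that the study lists for miR-2411 was thus not seen in this row, and the reason was not tested. Its mean level (log2) lay between 5.23 and 5.45. Just outside the rule were miR-1197, miR-323 and miR-485 of the imprinted DLK1-DIO3 cluster, which are listed at d 92 only. The difference of miR-1197 was -1.74 at d 92 and -1.65 at d 124, and it was lower than d 0 in 4 of 4 steers at each time. That of miR-323 was -1.003 at d 92 and -0.72 at d 124. For miR-485 it was -1.61 at d 92 and -0.27 at d 124. Listed at d 124 only, miR-196a-1 of the HOX clusters had -0.83 at d 92 and -1.44 at d 124. Without the d 0 library of steer 4, the differences at d 92 and d 124 were -1.56 and -1.47 for miR-1197, -0.78 and -0.49 for miR-323, and -0.55 and -1.16 for miR-196a-1. They were -1.55 and -0.21 for miR-485, and 0.19 and -0.029 for miR-2411. Among the 10 miRNAs listed as lower, miR-449a and miR-1197 had the lowest differences at d 124, and their mean levels at d 0 were 2.19 and 2.74.

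Rows that vary with miR-449a were described by Pearson's r over the 12 libraries, which share a normalization and, in part, steers. Of the 367 other fitted rows, 273 had r above 0, the median r was 0.22, and the 5th and 95th percentiles were -0.36 and 0.65. The highest r were 0.82 for MI0005028 and 0.82 for MI0010457, and the lowest were -0.77 for MI0013080 and -0.76 for MI0009886. The sources used here do not give the names of these rows. MI0009886 was itself near the floor, with a mean level of 0.29 (log2), and was at the floor in every d 0 library. No level was recovered for MI0013080. Levels of MI0005028 (log2) were 5.89, 5.46, 5.93 and 6.44 at d 0, 5.28, 5.35, 5.36 and 5.39 at d 92, and 4.95, 5.17, 5.77 and 5.01 at d 124 in steers 1 to 4. It was highest in steer 4 at d 0, as miR-449a was, and at d 124 it was highest in steer 3, again as miR-449a was. Such shared peaks are favoured by the choice of MI0005028 for its r over these same libraries.

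Of the miRNAs with a name, miR-208b had the highest r, 0.71, the 12th of 367. It is encoded in MYH7, the gene of slow fibre myosin, and was the only skeletal muscle marker of the list used here whose row could be named. Its levels (log2) were 10.40, 9.59, 10.26 and 11.06 at d 0, 10.32, 10.12, 8.68 and 10.48 at d 92, and 9.28, 9.11, 9.56 and 9.47 at d 124. It was far above the floor in every library. It was lowest in steer 3 at d 92, where miR-449a was at the floor, but high in steer 4 at d 92, where miR-449a was at the floor too. The r of miR-323 was 0.69 and that of miR-1197 was 0.66. Rows with a name here are those that the study lists as changed in these same libraries. All 3 of these miRNAs are listed as lower, as miR-449a is, which favours a positive r. The median r was 0.57 over the 9 other miRNAs listed as lower, -0.11 over the 8 listed as higher and 0.22 over all 367 rows.

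The likeness rested in good part on the d 0 library of steer 4. Of 13 rows with r of 0.7 or more, 12 had their highest value in that library, against 137 of all 367. As miR-449a was itself highest there, a choice by high r favours such rows. Without it, 1 row reached 0.7. The r was then 0.68 for MI0005028, 0.69 for MI0010457, 0.56 for miR-208b and 0.47 for miR-323. For the rows of lowest r it was -0.61 for MI0013080, weaker than with all libraries, and -0.83 for MI0009886, which was stronger. With Spearman's rho, 3 rows reached 0.7. With deviations from the mean of each time in place of the values, 9 rows did, and r was 0.59 for MI0005028, 0.60 for miR-208b and 0.30 for miR-1197.

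**Figure D4:**
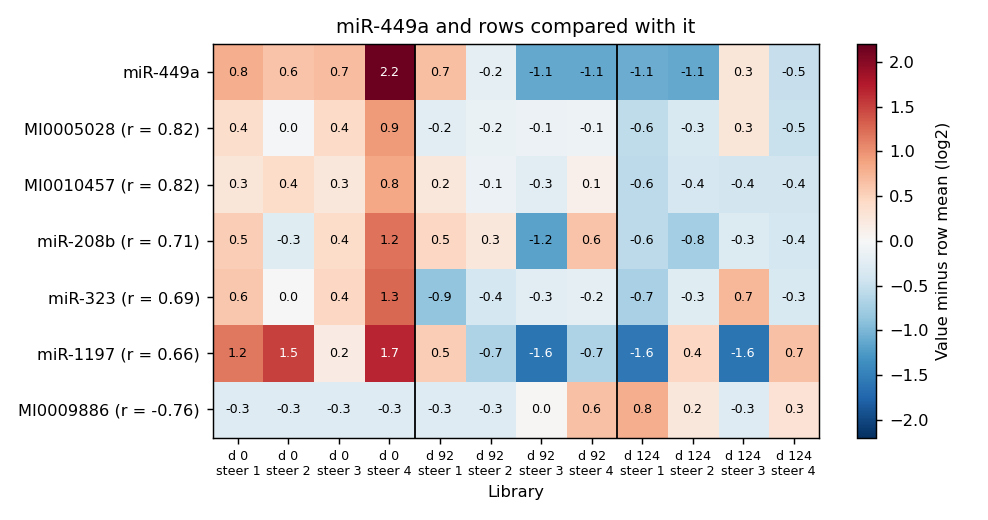
Value minus row mean (log2, colour and numbers) in each library (horizontal axis) for miR-449a, the 2 rows of highest r, miR-208b, miR-323, miR-1197 and 1 of the rows of lowest r (vertical axis, with r), with black lines between d 0, d 92 and d 124. The d 0 library of steer 4 is the highest for miR-449a and for miR-208b, miR-323 and miR-1197.

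Levels of other cell types' markers were set beside these values. The red blood cell miRNA miR-144 had a mean level (log2) of 11.44 at d 0, 12.98 at d 92 and 12.82 at d 124, and its r with miR-449a was -0.15. The white blood cell miRNA miR-142 had 11.19, 12.00 and 11.71 at the same times and an r of 0.14. For the liver miRNA miR-122 the levels were 9.07, 10.53 and 9.55 and r was -0.25. With deviations from time means in place of the values, r was 0.59 for miR-144, 0.66 for miR-142 and -0.032 for miR-122. Within the times, miR-144 and miR-142 thus varied with miR-449a about as much as miR-208b did. The study lists miR-122 as higher than d 0 at both times, also by qPCR, and miR-144 and miR-142 as higher at d 124. In the deposited values, the difference of miR-122 from d 0 was 1.47 at d 92 and 0.48 at d 124 (standard error 0.83). At d 124 it was 1.38 for miR-144 (standard error 0.62) and 0.52 for miR-142 (standard error 0.57). The study gives larger log fold changes for miR-122 and miR-142, and the reason was not tested. None of these 3 passed an adjusted p under 0.05 in limma against d 0, but 0 of all 368 fitted rows did. That outcome therefore does not show these 3 miRNAs to be unchanged. Their part in the levels of miR-449a was not tested. In bulk tissue, fewer cells that hold miR-449a and less miR-449a per cell cannot be told apart. Markers of multiciliated and other epithelium besides miR-449a itself were not analysed here, since their rows are not paired with names.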

How the data were processed

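Small RNA libraries (Ion Total RNA-Seq Kit v2) from 12 muscle biopsies, 4 steers at each of 3 times, were aligned by the authors to bosTau4 and normalized with the Quantile algorithm of StrandNGS, with no version stated. The deposited table holds log2 values made by the authors, 1 column per library, with every row centred on its median. The base was taken as 2. Row medians were recovered by matching values to levels that rows share (tolerance 3e-06), for 1245 of 1314 rows that vary. Levels and steps are relative to the floor. The table holds no counts, and depth per library is not given here.

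Differences were fitted with limma 3.58.1 (R 4.3.3), robustly and with a trend in the spread, on 368 miRBase rows above their minimum in at least 4 libraries, with time as the only term, after the study's analysis of variance. Adjusted p-values are those of Benjamini and Hochberg over these rows. For the change between d 92 and d 124, a two-sided exact permutation test was added, which did not keep libraries of the same steer paired. Python 3.11.15 was used for levels and plots, with pandas 2.3.3, numpy 2.4.6 and matplotlib 3.10.9. Recovery and fit were tested on simulated data. Same-numbered libraries come from 1 steer. The deviations of such libraries from their time means had a median r of 0.12 over 12 pairs, against -0.026 over 36 pairs of different steers.

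The row, the lists and the tests were chosen with earlier results of these data known. Named miRNAs were miR-449a, family members paired with a row (0 beside miR-449a), miRNAs of the study's tables, and the 5 rows of highest and 3 of lowest r. Of the last 8, which have no names, 4 identifiers are printed. The reference table of RefSeq genes matched 0 row identifiers and served only for neighbouring genes.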

Additional observations from a re-analysis of the deposited data

Results flagged for a closer look

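In the d 0 group, the level of miR-449a in steer 4 was 3.28 (log2), while the other 3 steers lay between 1.74 and 1.92. The gap to the nearest library was 0.884 of the range of the group, which is above the 95% limit of Dixon's test. Of the 12 groups of 4 libraries looked at, this was the 1 above that value, and chance alone puts about 1 in 20 groups there. The same library held the highest value for 138 of 368 fitted rows.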

How the results depend on the processing

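In the fits with a replicate block for the steer, the difference of miR-449a between d 124 and d 92 stayed at -0.17 (adjusted p = 0.967 from limma), those from d 0 stayed at -1.51 and -1.68, and the block changed no call. Under log2(value + 10), with the floor taken as 1, the differences from d 0 were -0.33 at d 92 and -0.37 at d 124. With 1 library left out, they ran from -1.88 to -1.14 at d 92 and from -1.97 to -1.31 at d 124. That between d 124 and d 92 ran from -0.47 to 0.20 and turned sign without d 92 replicate 1. Its adjusted p lay between 0.956 and 1 over the fits run. Rows with an unadjusted p under 0.05 numbered 15 to 24 with 1 library left out (19 with all) at d 92 against d 0. They numbered 20 to 35 (33 with all) at d 124 against d 0, with 20 without d 124 replicate 1. At d 124 against d 92 they numbered 4 to 14 (5 with all), with 14 without d92 replicate 3 and 8 without d0 replicate 4. The smallest adjusted p over 16 fits and 3 comparisons was 0.175. Of the 5 rows most like miR-449a, 2 stayed among the first 5 with Spearman's rho, 0 with deviations from time means, 2 with deviations from steer means and 2 to 5 with 1 library left out, 2 of them without d 92 replicate 4. The cause of these changes was not tested. For the rest of the family the planned fits were not run, as no rows are paired with those names. The floor, the steps and the lack of counts limit what can be seen of a row at this level.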

Other observations

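Rows with an Ensembl identifier, which entered no comparison above, were set beside miR-449a in the same way. Of 634 such rows above their minimum in at least 4 libraries, 3 had r of 0.7 or more and 14 had r of -0.7 or less. Among the 367 miRBase rows these numbers were 13 and 3. The median r was -0.13 over the Ensembl rows and 0.22 over the miRBase rows, and the extremes over the Ensembl rows were 0.73 and -0.83. The sources used here give no names or RNA classes for these rows.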
